A study of Homo sapiens with 4 samples.

Results

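The regions described here are the broad initiation regions of RepID knockout cells. They were selected on a measured value, the width of the region in the knockout list, as all regions of chromosomes 1 to 22 that spanned at least 10000 bp from start to end. The rule found 3706 broad regions among 159441 autosomal regions of the knockout list, or 2.32%, and among 262748 regions in all 3 lists of the series. Because width chose them, their width and their score in the knockout list are given as a description only. What the wild-type list and the RepID list held at the same positions did not enter the choice.

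Replication of a human chromosome starts at many origins, and short nascent DNA strands that begin with an RNA primer mark the places where it has just started. Initiation is focused at some origins and is spread over a wide zone at others, where any of several places can be used in a given cell cycle. RepID (also called PHIP or DCAF14) is a chromatin-binding protein that associates with a subset of origins and serves as a substrate receptor of a ubiquitin ligase built on CUL4.

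Nascent strands were sequenced from HCT116 cells, a human colon carcinoma line, that kept RepID intact (WT) and from cells of the same line in which RepID had been disrupted by CRISPR-Cas9 with a guide against the fourth exon of the gene, followed by selection in puromycin (KO). RepID binding was measured by ChIP-Seq with an antibody against FLAG in a different line, U2OS osteosarcoma cells that carried FLAG-tagged RepID. A RepID peak below is therefore a site bound in U2OS cells, and these lists do not show whether it is bound in HCT116 cells. The cultures were asynchronous, those of U2OS cells are described as untreated, and each condition had 1 library. HCT116 is known as a near-diploid line with extra copies of parts of several chromosomes, segments of 8q, 10q, 16q and 17q among them. The KO cells were selected as stable clones after seeding at serial dilutions, and how many clones the sequenced culture held is not given in the sources used here.

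The autosomal lists held 77492 WT origins with a median width of 2400 bp, 159441 KO regions with a median width of 3000 bp and 23897 RepID peaks with a median width of 560 bp. WT origins covered 300.8 Mb and KO regions 556.7 Mb. The deposited KO list is much longer than the set of KO peaks that the paper describes, the reason is not given in the sources used here, and every KO count, width and coverage below is that of the deposited list. Read totals are not part of the lists, which leaves library depth unknown, and a region that appears in 1 list alone may differ through depth as well as through initiation. The same HCT116 genomic DNA control entered the calling of the WT and the KO list, so the overlap of the 2 lists is given as a description. With 1 library per condition there is no spread between replicates, no test between conditions was made, and each 95% interval below covers counting error only.

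The broad KO regions together spanned 52.0 Mb, or 9.35% of the bases in KO regions. Most of them were only a little over the minimum width. The median was 12200 bp, the quartiles were 10800 and 15000 bp, and 2758 of them (74.4%) were narrower than 15 kb. At the upper end, 371 spanned 20 kb or more, 81 spanned 30 kb or more and 13 spanned 50 kb or more. Edges of both nascent-strand lists lay on a grid of 200 bp, so the threshold fell between 2 grid steps. There were 235 regions of exactly 10000 bp, with a median score of 453, and 253 regions of 9800 bp just below the threshold, with a median score of 450.

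The deposited score of a KO region is 1 whole number whose meaning is not stated, and it is compared here only within the KO list. Scores of the broad KO regions ran from 320 to 85394 with a median of 610.5, against a median of 128 for the other KO regions. The score rose with width. Divided by the width, the median was 49.3 per kb in the broad regions, with quartiles at 43.6 and 55.9, and 46.5 per kb in the others, with quartiles at 41.3 and 54.0. Per unit of length, the bulk of the broad regions therefore scored within the range of the narrower ones.

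A small group stood far above the band in the plot of score against width. The score reached 5000 or more in 27 broad regions, and 16 of these lay within 1 Mb of the longest stretch of their chromosome that holds no region in any of the 3 lists, which serves here as a marker of the unassembled sequence around the centromere or on the short arm. Of all broad KO regions, 125 (3.37%) lay within that distance, against 0.996% of the other KO regions. Their median score was 1090, against 604 for the remaining broad regions, and their median score per kb was 70.6. The part of repeated sequence, where reads of many copies can be assigned to few places, was not tested.

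**Figure D1:**
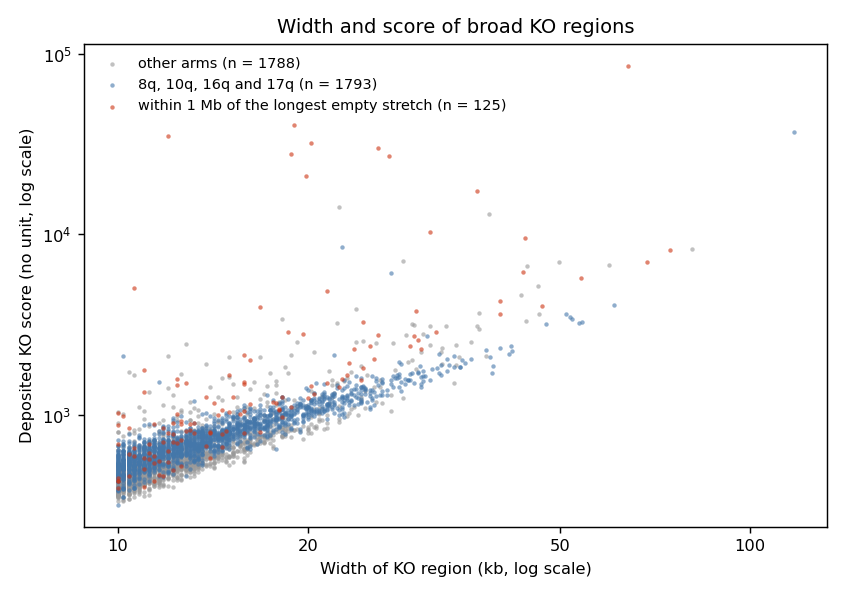
Each point is 1 of the 3706 broad KO regions, with its width in kb on the horizontal axis and its deposited score, which has no unit, on the vertical axis, both on log scales; red points lie within 1 Mb of the longest empty stretch of their chromosome (n = 125), blue points elsewhere on 8q, 10q, 16q and 17q (n = 1793) and grey points elsewhere on other arms (n = 1788). Most points form 1 band in which score rises with width, and 16 of the 27 points with a score of 5000 or more are red.

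The 5 highest scores illustrate this group. The highest, 85394, belonged to a region of 64.0 kb on chromosome 2 from 92262201 to 92326200, which ended where the longest empty stretch of that chromosome began. A region of 19.0 kb on chromosome 17 from 22244001 to 22263000, with a score of 40494, and a region of 12 kb on chromosome 18 from 18510801 to 18522800, with a score of 35097, also touched that stretch. Neither of the last 2 held a WT origin or a RepID peak. The fifth highest, 32068, was found on chromosome 7 from 61967001 to 61987200, 900.2 kb from the stretch, with 1 RepID peak and no WT origin. The third highest score, 36746, came from the body of the long arm of chromosome 8 and belonged to the widest region of all, described below.

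Broad KO regions were found on every autosome but were spread very unevenly. Long arms of 4 chromosomes, 8, 10, 16 and 17, held 1805 of the 3706 (48.7%), although the same arms held 13.2% of all autosomal KO regions, 14.4% of WT origins and 15.7% of RepID peaks. The arms were singled out after their counts were seen. On 8q, 652 of 7399 KO regions were broad, or 8.81% (95% exact binomial interval 8.18 to 9.48). On 17q, 425 of 4712 were broad, or 9.02% (8.22 to 9.87). The shares were 8.40% on 10q (495 of 5893) and 7.56% on 16q (233 of 3083). On the other 35 arms the share ran from 0.619% on 4q to 2.49% on 11p, with a median of 1.41%, so that no other arm came near these 4.

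**Figure D2:**
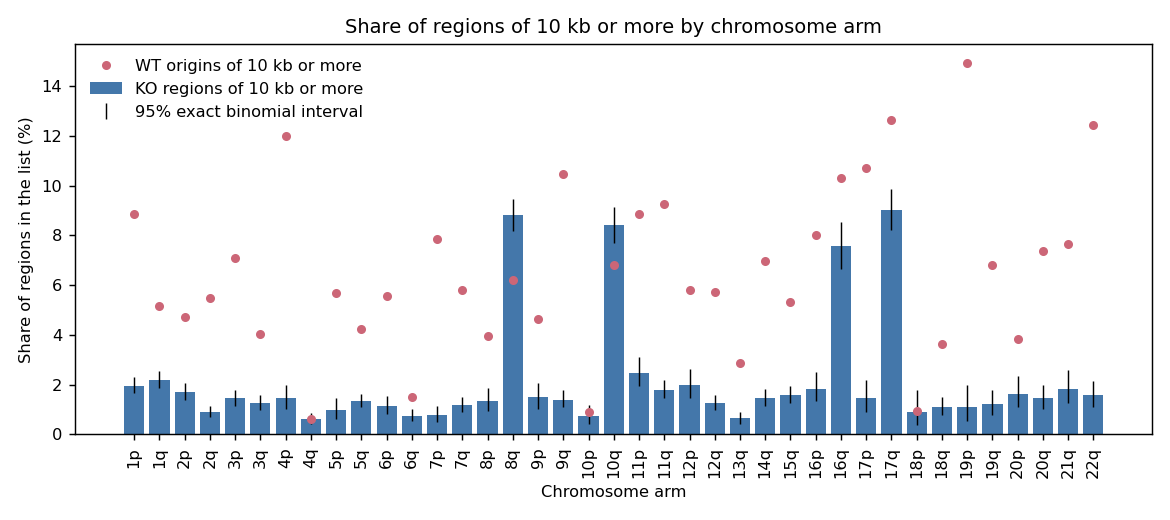
Bars give the share of KO regions that spanned 10 kb or more on each of 39 chromosome arms, in percent, with 95% exact binomial intervals, and points give the same share among WT origins. The bars of 8q, 10q, 16q and 17q stand between 7.56% and 9.02%, those of the other 35 arms at or below 2.49%, and the WT points of these 4 arms lie within the range of the other arms.

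The WT list did not show the same arms standing apart. WT origins of 10 kb or more numbered 5421 on the autosomes, and 994 of them (18.3%) lay on these 4 arms. Their share of the WT origins of an arm was 6.20% on 8q, 6.83% on 10q, 10.3% on 16q and 12.6% on 17q, whereas it had a median of 5.74% and a maximum of 14.9% on the other arms. Narrower KO regions of these arms shared the difference. The median width of all KO regions was 3400 bp on 8q, 10q and 16q and 3600 bp on 17q, against 2600 to 3000 bp on the other arms. KO regions covered 34.7% of 8q, 29.4% of 10q, 31.4% of 16q and 40.1% of 17q, against at most 26.6% of any other arm. DNA copy number was not analysed here, and whether the distribution follows the copy number of the KO culture, its depth or initiation itself cannot be told apart in 1 library.

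Within these arms, the broad KO regions lay mostly toward the chromosome end. Positions were set by eye on bins of 5 Mb to describe this. From 90 Mb on, chromosome 8q held 560 broad regions, 11.8% of its KO regions there, against 3.45% before that position. From 100 Mb on, chromosome 10q held 444, or 15.8%, against 1.66%. From 75 Mb on, chromosome 16q held 197, or 14.6%, against 2.08%. From 45 Mb on, chromosome 17q held 386, or 11.7%, against 2.75%. These 4 segments thus contained 1587 broad KO regions, 42.8% of the total, in runs of neighbouring bins with raised shares rather than at single sites. The WT list also changed at these positions. Past them, 7.38% of WT origins on 8q spanned 10 kb or more, against 2.73% before. The shares were 14.8% against 6.58% on 16q, 14.8% against 9.08% on 17q and 6.26% against 7.55% on 10q.

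The bin with the most broad KO regions was chromosome 8 from 130 to 135 Mb, with 94 of 449 KO regions, followed by chromosome 16 from 80 to 85 Mb, with 90 of 497. Of 560 bins with at least 50 KO regions, 78 held no broad region and 43 had a share of 5% or more, 30 of them on the 4 arms. Some of those on other arms touched the longest empty stretch, such as chromosome 11 from 50 to 55 Mb, with 14 of 55 (25.5%). Chromosome 1 from 140 to 145 Mb, with 21 of 94 (22.3%), was another. Chromosome 1 from 15 to 20 Mb, with 23 of 373 (6.17%), lay away from it. Broad KO regions also lay near each other, since 1354 (36.5%) had another broad region within 20 kb and 2341 (63.2%) within 100 kb, so that neighbouring regions are not independent of each other. The median width was 13000 bp on the 4 arms and 11600 bp elsewhere, and the arms held 63.6% of the 371 regions of 20 kb or more.

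Most broad KO regions overlapped an origin that was also listed in WT cells. A WT origin overlapped 2684 of them by at least 1 bp, or 72.4% (71.0 to 73.9), against 31% of all autosomal KO regions and 29.98% of those under 10 kb. A wide region meets more origins through its width alone, so a single position was also compared. A WT origin covered the midpoint of 1428 broad regions, or 38.5% (37.0 to 40.1), against 21.1% of all KO regions and 20.7% of the narrower ones. The difference between broad and narrower regions was 17.9 percentage points (95% Newcombe interval 16.3 to 19.4). It had the same direction on 21 of 22 autosomes, with 27.9 points on chromosome 18 as the highest value and -6.82 points (-21.8 to 9.57) on chromosome 19, where the sign was opposite, as the lowest. The intervals of chromosome 20, at 7.95 points (-3.03 to 20.1), and chromosome 22, at 1.42 points (-14.2 to 17.1), also include both signs.

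The difference was present both on and off the 4 arms, though smaller in each portion than the pooled 17.9 points. Within 8q, 10q, 16q and 17q it was 15.7 points (13.3 to 18.1), from 42.1% and 26.4%. In the rest of the genome it was 15.3 points (13.1 to 17.5), from 35.1% and 19.9%. WT coverage was thus higher at the midpoints of broad KO regions in both portions. The 4 arms held 48.7% of the broad and 13.2% of all KO regions, so the pooled value also carries how regions were spread over arms. The arms themselves differed in level, since the share for broad regions was 26.2% (22.9 to 29.8) on 8q, below that of the rest of the genome, and 47.5% on 10q, 49.8% on 16q and 56.0% on 17q.

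Counted over bases, WT origins covered 36.3% of the broad KO regions and 23.04% of flanks of the same length on each side, a ratio of 1.58, or 2.58 when flank bases in any KO region were left out. For the narrower KO regions the corresponding values were 21.3% and 15.2%, a ratio of 1.41. Coverage rose with the width of the KO region across the whole list, from 15.6% in regions under 2 kb to 30.2% in those of 8 to 10 kb, 32.7% in those of 10 to 12 kb and 43.9% in those of 20 kb and over. The flanks rose as well, from 11.8% to 25.5%. No step in WT coverage was seen at the threshold of 10 kb, which cuts a continuous series. RepID density was less even there. It was 9.48 peaks per Mb (8.78 to 10.2) in regions of 6 to 8 kb and 8.03 (7.12 to 9.02) in those of 8 to 10 kb. In regions of 10 to 12 kb it was 10.8 (9.30 to 12.4).

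**Figure D3:**
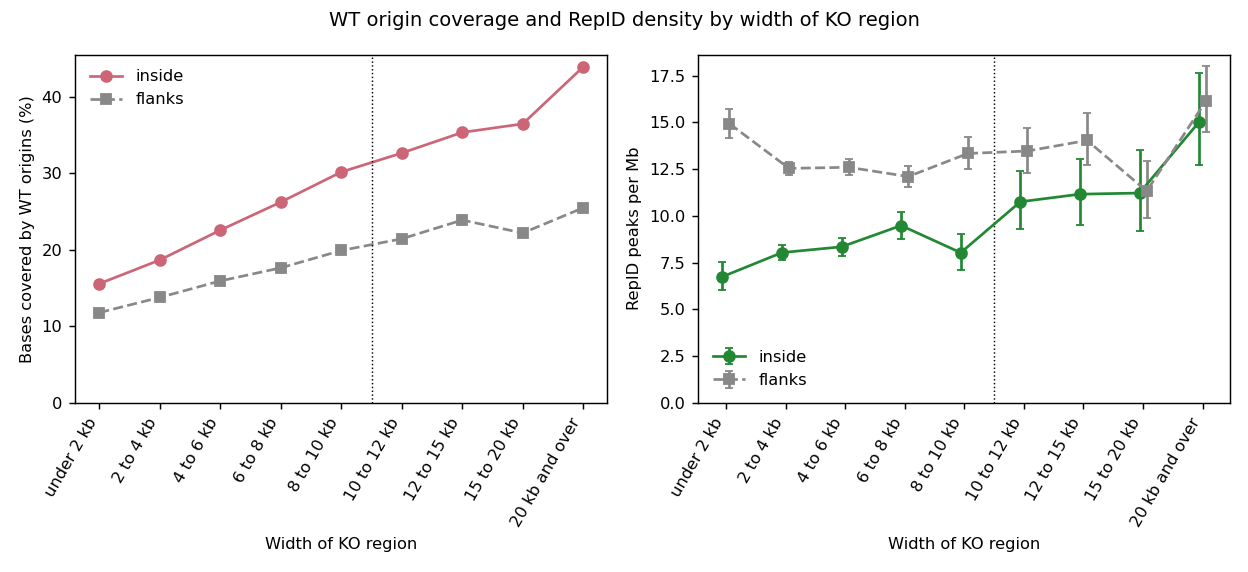
Each pair of points is a class of KO regions by width; the left panel gives the percentage of bases covered by WT origins and the right panel RepID peaks per Mb, inside the regions (circles) and in flanks of the same length (squares), with 95% Poisson intervals in the right panel, and the dotted line marks 10 kb. Inside coverage climbs from 15.6% to 43.9% with width and stays above the flanks, whereas RepID density inside starts below the flanks, at 6.74 against 14.9 per Mb, and comes close to them in the widest classes.

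The number of WT origins that 1 broad KO region met ran from 0 to 11, with a mean of 1.29 and a median of 1. No WT origin was met by 1022 regions, 1 by 1293, 2 by 881, 3 by 372 and 4 by 101. The remaining 37 met 5 or more, namely 5 in 26 regions, 6 in 7, and 7, 8, 10 and 11 in 1 region each. The number increased with KO width, with a mean of 1.01 (SD 0.911) in the 1675 regions of 10 to 12 kb, 2.09 (SD 1.44) in the 290 of 20 to 30 kb and 4.69 (SD 3.30) in the 13 of 50 kb and over. Per length it did not, since the corresponding values were 0.934, 0.897 and 0.724 WT origins per 10 kb.

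**Figure D4:**
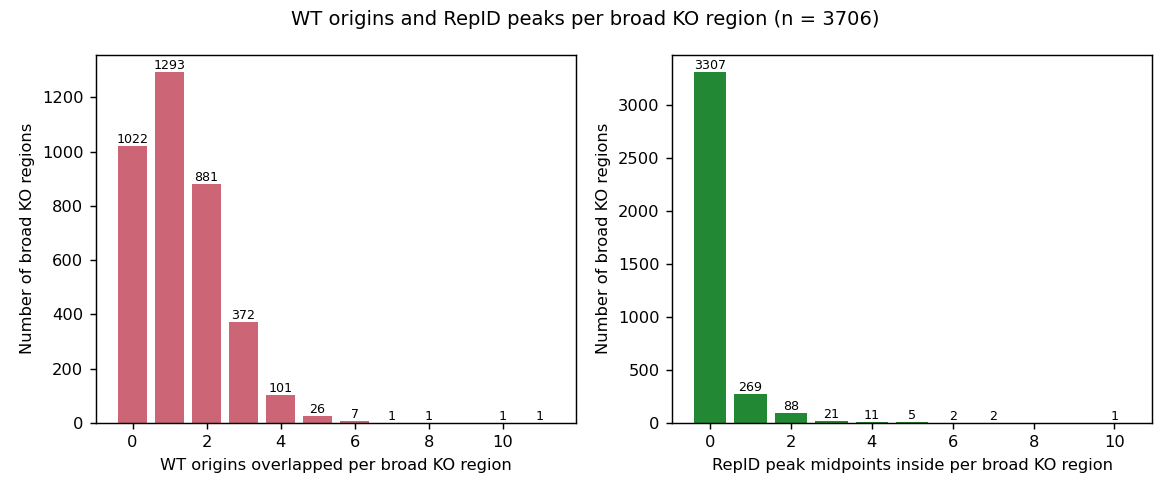
Bars count the 3706 broad KO regions by the number of WT origins they overlap (left) and by the number of RepID peak midpoints they hold (right), with the count above each bar. The left panel peaks at 1 WT origin (1293 regions), whereas in the right panel 3307 regions hold no RepID peak.

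The ways in which broad KO and WT regions met fell into 5 classes. The most frequent was a KO region over 2 or more WT origins, in 1391 cases or 37.5% (36.0 to 39.1), and these covered 54.9% of its bases. In 864 cases (23.3%) a single WT origin lay wholly inside the KO region. In 258 (6.96%) a single WT origin overlapped but extended past 1 edge. In 171 (4.61%) the KO region lay wholly within a single wider WT origin, and 1022 (27.6%) met none. Of the 3706, 2489 (67.2%) had less than 50% of their bases covered by WT origins, while 337 had 90% or more.

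Where a single WT origin lay inside, the median width was 2600 bp in WT and 12000 bp in KO cells, and the median ratio of the 2 widths was 4.85, with quartiles at 2.94 and 8.76. The KO region extended beyond the WT origin by a median of 2000 bp on the nearer side and 7000 bp on the other. The 2 sides were sorted by length, so their order is fixed, and whether the origin was off centre was not tested. The KO regions were chosen for a width of 10 kb or more and the origins inside must be narrower. The ratio of the 2 widths is therefore fixed in its direction by the rule.

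Where 2 or more WT origins were met, the KO region was continuous across the gaps between them. There were 2099 such gaps, with a median of 1600 bp, quartiles at 1000 and 3200 bp and a range from 800 to 24400 bp. Many of the joined gaps were thus only a few grid steps longer than the shortest one.

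Distinct WT origins met by a broad KO region numbered 4713, or 6.08% of the WT list. Their median width was 3200 bp, that of all WT origins 2400 bp, and 594 of them (12.6%) spanned 10 kb or more, against 6.996% in the whole WT list. A wide origin meets more regions through its width alone. Among WT origins with their midpoint in a broad KO region, the median width was 3000 bp and 9.945% spanned 10 kb or more. Of the 5421 WT origins of 10 kb or more, 594 (10.96%) met a broad KO region, 3946 met narrower KO regions only and 881 met none. In the other direction, 593 of the 3706 broad KO regions met a WT origin of that width. By an overlap of 1 bp or more, most WT origins of 10 kb or more thus met a KO region, mainly a narrower one. By midpoint, which does not depend on width in this way, most did not. Of these origins, 416 had their midpoint in a broad KO region, 1614 in a narrower one and 3391 in none. For WT origins of all widths, 54.4% had their midpoint in no KO region. Among WT origins of all widths, 29752 of 77492 (38.4%) met no KO region.

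The 5 widest KO regions show these forms. The widest spanned 117.2 kb on chromosome 8 from 86726401 to 86843600. It met 10 WT origins of 3600 to 15200 bp, which covered 84.3% of it, and it held no RepID peak. The next, 80.8 kb on chromosome 4 from 190469801 to 190550600, met 4 WT origins that covered 34.4% and held 1 RepID peak. A region of 74.8 kb on chromosome 1 from 143395401 to 143470200 met 4 WT origins and held 1 peak, 812.2 kb from the longest empty stretch. On chromosome 21, from 9859401 to 9928000, a region of 68.6 kb met 3 WT origins that covered 62.1% of it and held 10 RepID peaks, more than any other. The region of 64.0 kb on chromosome 2 named above was the fifth, and only 1.25% of it was covered by the edge of 1 WT origin of 2600 bp.

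The largest number of WT origins, 11, was met by a region of 54.2 kb on chromosome 8 from 102257601 to 102311800, whose score was 3292. These origins were 600 to 7400 bp wide and covered 36.2% of it. A region close by, from 102139001 to 102172200, met 7 origins that covered 64.5% of its 33.2 kb. On chromosome 17, a region from 70605001 to 70656800 met 8 WT origins and another from 70662001 to 70722800 met 6, with 60.6% and 59.2% of their bases covered. All 4 were in distal segments of the arms named above, and each held at most 2 RepID peaks.

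The opposite form, a broad KO region wholly inside a wider WT origin, included 49.8 kb on chromosome 1 from 2582601 to 2632400, inside a WT origin of 54400 bp, with 1 RepID peak. On chromosome 4, 46.2 kb from 9324601 to 9370800 lay inside a WT origin of 46800 bp. On chromosome 19, 44.2 kb from 36760001 to 36804200 lay inside a WT origin of 49000 bp, and neither of the last 2 held a RepID peak. Over all 171 such regions the median width of the enclosing WT origin was 28400 bp.

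Regions apart from both WT initiation and RepID were a minority among the broad ones. No WT origin and no RepID peak lay within 10 kb of 733 broad KO regions (19.8%), against 48.9% of the narrower ones, whose surroundings are as wide but whose own span is smaller. The median width of the 733 was 11600 bp and their median score 556. The widest was 54.0 kb on chromosome 7 from 57947401 to 58001400, followed by 43.8 kb on chromosome 1 from 142781801 to 142825600, 40.2 kb on chromosome 12 from 38014401 to 38054600, 38.6 kb on chromosome 21 from 10698001 to 10736600 and 37.0 kb on chromosome 5 from 49405601 to 49442600. All but the one on chromosome 21, at 1267 kb, lay within 200 kb of the longest empty stretch of their chromosome.

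RepID peaks, counted by their midpoints, were present in few of the broad KO regions. At least 1 peak was inside 399 of them, or 10.8% (9.79 to 11.8), against 2.4% of all autosomal KO regions, and 16.4% of WT origins held one. The 399 regions held 613 peaks, 2.57% of the autosomal RepID list. A single peak was held by 269 regions, 2 by 88, 3 by 21, 4 by 11, 5 by 5, 6 by 2, 7 by 2 and 10 by 1. With peaks up to 2 kb away included, 553 regions (14.9%) had one.

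Per length, broad KO regions held 11.8 RepID peaks per Mb and the narrower ones 8.20, a ratio of 1.44 (95% exact interval 1.32 to 1.56). This ratio was not the same throughout the genome. On 8q, 10q, 16q and 17q it was 0.951 (0.840 to 1.07), from 13.4 and 14.1 per Mb, while in the rest of the genome it was 1.39 (1.22 to 1.58), from 10.0 and 7.22 per Mb. The ratio of 1.44 over all autosomes lay above both. By autosome the density was higher in broad regions on 14 and lower on 8. Intervals lay wholly above 1 on chromosomes 1, 5, 9 and 21 and included 1 on the others. No ratio was available for chromosome 13, whose broad regions held no peak. On chromosome 21, at 12.8 (5.93 to 28.4), 10 peaks lay in a single region. Most signs by autosome were thus within counting error. Between the 4 arms and the rest of the genome, the difference was less uniform than for WT coverage.

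The flanks of the broad KO regions held 13.8 RepID peaks per Mb, so that the ratio of inside to flank was 0.857 (0.778 to 0.942). For narrower KO regions it was 0.641 (0.619 to 0.664). The ratio was below 1 on the 4 arms pooled, at 0.879 (0.774 to 0.996), and elsewhere, at 0.828 (0.713 to 0.959), but not on 8q, at 1.04 (0.795 to 1.36). It also came close to 1 in the wider classes, at 0.991 (0.780 to 1.25) for regions of 15 to 20 kb and 0.929 (0.761 to 1.13) for those of 20 kb and over, whose intervals include 1. In the 125 broad regions within 1 Mb of the longest empty stretch it was above 1 instead, at 1.58 (1.07 to 2.30), with 22.03 peaks per Mb inside. Of the 52 peaks inside these regions, 10 lay in a single region on chromosome 21 and 7 in a single region on chromosome 15. The interval does not allow for such clustering.

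RepID peaks within broad KO regions lay almost entirely in the portions that WT origins covered. Of the 613 peaks, 555 (90.5%, 87.9 to 92.7) had their midpoint in a WT origin, against 85.8% of all autosomal RepID peaks. The share was 88.1% (87.1 to 89.1) for peaks inside narrower KO regions, so it was not particular to the broad ones. Bases of broad KO regions within WT origins held 29.4 RepID peaks per Mb and the remaining bases 1.75, a ratio of 16.8 (12.8 to 22.4). In narrower KO regions the same ratio was higher, at 27.3 (24.9 to 30.1). Bases that were in neither list held 1.45 per Mb, so the portions of broad KO regions outside WT origins were nearly as poor in RepID as the genome outside both lists.

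Among bases of WT origins, those in broad KO regions were less dense in RepID than those that no KO region covered. The latter held 93.5 peaks per Mb, and the ratio of broad KO to no KO was 0.314 (0.288 to 0.342). Bases of WT origins in narrower KO regions were similarly sparse, with 33.9 per Mb, and the ratio of broad to narrower was 0.867 (0.792 to 0.949). The ratio of broad to narrower was 0.652 (0.573 to 0.740) on the 4 arms, from 30.7 and 47.2 per Mb, and 0.894 (0.778 to 1.02) in the rest of the genome, where the interval includes 1. The order held for WT origins under 10 kb, with 24.4 per Mb in broad KO regions, 32.5 in narrower ones and 104.6 in none. For WT origins of 10 kb or more, broad and narrower KO regions did not differ beyond counting error, with 38.2 and 37.7 per Mb and a ratio of 1.01 (0.882 to 1.16), and both were under the 74.0 per Mb outside KO regions. On the 4 arms the broad to no-KO ratio was 0.282 (0.250 to 0.317) and in the rest of the genome 0.302 (0.264 to 0.344).

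RepID density also differed between the classes of overlap. Broad KO regions with no WT origin held 1.29 peaks per Mb, those around a single WT origin 7.60, those over 2 or more 15.8, those offset from 1 origin 17.6 and those wholly inside a WT origin 45.9. At least 1 peak was held by 1.47% of the first class and by 35.1% of the last. Density thus followed the share of the region that WT origins covered, which was 0, 26.1%, 54.9%, 48.6% and 100% in the same order, with 1 inversion.

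RepID peaks were most frequent just outside the edges of the broad KO regions. The 2 kb outside each edge held 18.9 peaks per Mb and the 2 kb inside held 12.3, a ratio of 1.53 (1.27 to 1.85), and the distance of 10 to 20 kb outside held 12.6, close to the level inside. WT coverage did not have this shape, since it was 20.5% in the 2 kb outside, 22.9% at 10 to 20 kb outside, 30.1% in the 2 kb inside and 36.4% from 2 to 5 kb inside. RepID peaks were thus more frequent over the 2 kb outside although WT origins were less so. The narrower KO regions of 5 kb or more also had more peaks outside the edge, with 15.4 per Mb outside, 9.07 inside and a ratio of 1.70 (1.57 to 1.85). Their level inside was below the 10.8 per Mb at 10 to 20 kb outside, with a ratio of 0.840 (0.782 to 0.901). For the broad regions that ratio was 0.980 (0.831 to 1.15).

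**Figure D5:**
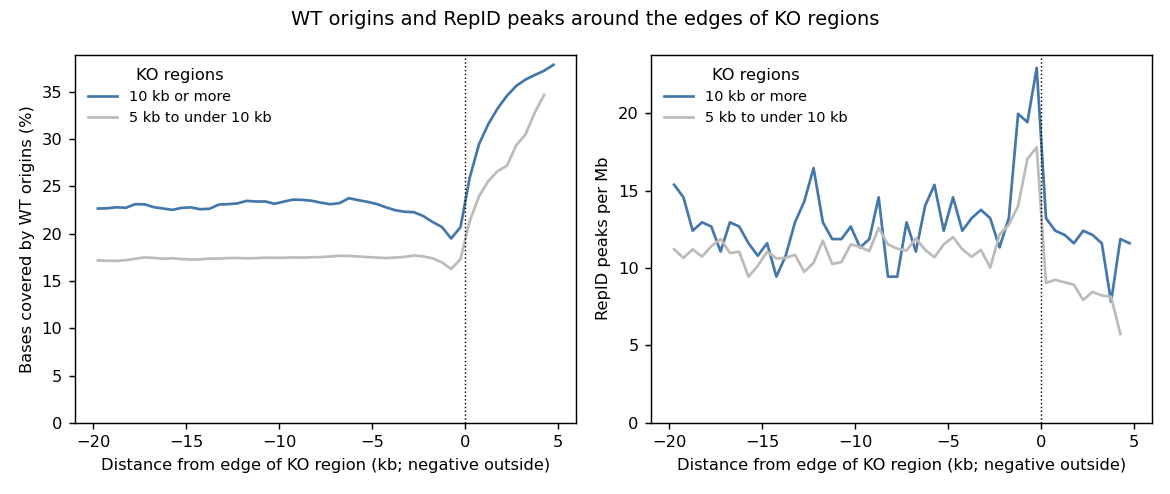
Both panels run from 20 kb outside to 5 kb inside the edges of KO regions, in steps of 0.5 kb averaged over both edges, with bases covered by WT origins in percent on the left and RepID peaks per Mb on the right, for regions of 10 kb or more (blue) and of 5 kb to under 10 kb (grey). WT coverage dips just outside the edge and climbs inside it, whereas RepID density is highest just outside, at 18.9 per Mb over the outer 2 kb of the broad regions, and drops at the edge.

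Deposited scores of the 613 RepID peaks inside broad KO regions had a median of 174, as did those of the peaks inside narrower ones, against 207 for peaks in no KO region. The peaks inside were 581 bp wide at the median. Within the broad regions, 334 peaks (54.5%, 50.4 to 58.5) lay in the outer 50% of the length and 279 in the inner 50%. The median distance from a peak to the nearer edge was 3360 bp.

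The broad KO regions with the most RepID peaks were of several kinds. Besides the one on chromosome 21 with 10 peaks, a region of 23.2 kb on chromosome 15 from 20542201 to 20565400 held 7 and was covered to 88.8% by 1 WT origin of 20600 bp. A region of 22.8 kb on chromosome 10 from 80707201 to 80730000 also held 7, over 2 WT origins that covered 94.7% of it. On chromosome 17, 23.4 kb from 21232801 to 21256200 held 6 peaks and was covered to 79.5%. The fifth was 14.4 kb on chromosome 8 from 142407401 to 142421800, with 6 peaks, wholly inside a WT origin of 87600 bp. In all 5, WT origins covered more than 60% of the region, and those on chromosomes 21 and 15 were within 500 kb of the longest empty stretch.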

How the data were processed

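Nascent strands of HCT116 WT and KO cells and RepID ChIP-Seq of U2OS cells were analysed, with 1 library each. Each deposited file lists regions by start and end, in bases, with a score. For RepID this score was given to each peak by the authors' run of MACS against genomic input of the same line, and for the nascent strands, called against HCT116 genomic DNA, its meaning and the calling programme are not given in the sources used here. The submitters' processing notes name SICER, MACS and the build hg19. Positions are those of the lists, on hg19 and counted from 1. The genomic control was not analysed here.

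Overlaps were computed in Python 3.11.15 (with pandas 2.3.3, SciPy 1.17.1 and numpy 2.4.6) and tested on simulated data and against bedtools 2.31.1. A WT origin was counted as met at an overlap of 1 bp or more, and a RepID peak as inside when its midpoint was. Shares have exact binomial (Clopper-Pearson) 95% intervals, differences Newcombe intervals and ratios of densities exact conditional intervals, all for counting error only. Arms were separated at the longest stretch of each chromosome with no region in any list, and only the side after it was used where the list begins with it, which gave 39 arms. No genome or annotation of hg19 was used, so no genes or sequences are given.

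The members, measures and named regions were chosen with earlier results of these data known. The named regions are the 5 widest, the 5 with the highest score, the 5 with the most WT origins, the 5 with the most RepID peaks, the 5 widest with neither within 10 kb and the 3 widest inside 1 WT origin. Alternatives covered the minimum width, merging of KO regions, score thresholds in each list, the overlap that counts, the chromosomes and the flanks. Leaving out the 4 arms, and leaving out regions within 1 Mb of the longest empty stretch, were added after the data were seen.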

Additional observations from a re-analysis of the deposited data

Results flagged for a closer look

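KO regions of 10 kb or more were also present on chromosomes X and Y, outside the autosomes described above, and numbered 6. On chromosome X there were 2 among 190 KO regions, and on chromosome Y 4 among 36. They are given because they lie outside the chromosomes the report describes, and they entered only the alternative that counts all chromosomes. The widest and highest-scoring spanned 33000 bp on chromosome Y from 13457201 to 13490200, with a score of 39833, followed in score by 26400 bp on chromosome X from 58555601 to 58582000, with 15994. The other 4 were 10000 to 12600 bp wide.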

How the results depend on the processing

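Over 68 alternative values of 9 results, 29 stayed within tolerance and 39 moved further. Only the midpoint difference and the ratios have a direction that could reverse, and none of them did. Counts and shares have no such direction. No broad region scored below the KO median of 130, so that filter could not change values that use the broad regions alone. The tolerance was the 95% counting interval of the reported value, or a factor of 1.5 for the number of regions. A minimum of 8000 bp gave 7759 regions, with 65.2% overlapped by a WT origin, 35.7% of midpoints and 33.8% of bases covered, a midpoint difference of 15.4 points, 7.86% with a RepID peak, a RepID ratio to other KO regions of 1.25 and to flanks of 0.755. A minimum of 20000 bp gave 371 regions, 84.9%, 48.8%, 43.9%, 27.8 points, 19.4%, a RepID ratio of 1.79, a WT ratio to flanks of 1.72 and a RepID ratio to flanks of 0.929 (0.761 to 1.13), whose interval includes 1. Merging KO regions at most 1000 bp apart gave 7792 regions, 69.9%, 34.1%, 33.6% and 15.1 points. Without 8q, 10q, 16q and 17q, an alternative chosen after seeing the data, there were 1901 regions, 69.2%, 35.1%, 32.5%, 15.3 points, 8.52% with a RepID peak and a WT ratio to flanks of 1.74. With WT origins at or above their median score, 51.6% were overlapped, with 32.3% of midpoints and 30.01% of bases covered, and with at least 50% of the origin inside, 67.3% were overlapped. KO regions at or above their median score gave a difference of 13.8 points. RepID peaks at or above their median score were held by 5.40%, with a ratio to flanks of 0.720, peaks overlapping by 1 bp by 11.8% and peaks within 2 kb by 14.9%. Flanks without bases in KO regions gave ratios of 2.58 for WT and 0.777 for RepID. The cause of these shifts was not tested. All 9 values without regions within 1 Mb of the longest empty stretch, also chosen after seeing the data, stayed within tolerance.

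No paired analysis was possible because each group has 1 library. Neighbouring regions are not independent, and the intervals do not allow for this. Depth and DNA copy number were not measured, the KO culture was compared with 1 WT culture, and RepID was mapped in another cell line. A KO region's width also depends on how the caller joins windows.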
